A study of Mus musculus with 14 samples.

Results

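The livers of mice that were fed a MASH diet and treated with C18:1 were compared with the livers of mice on chow. The members are the 4 libraries whose titles name MASH with OA (replicates 1 to 4) and the 4 whose titles name CD (replicates 1 to 4), which makes 8 of the 14 libraries of the series. Both groups were male C57BL6/J mice without a genetic change in the labels, aged 8 weeks at the start. The chow group (CD in the titles, read as the standard chow of the design text) was on its diet for 16 weeks. The C18:1 group was on the MASH diet for the same 16 weeks and then received C18:1, the compound abbreviated OA in the titles, for 6 more weeks on that diet. No dose, and no treatment period or vehicle for the chow mice, is given in the sources used here. Diet, compound and possibly age at collection thus changed together between these groups and cannot be told apart by this comparison. The 3 MASH libraries without the compound in their titles (replicates 2, 3 and 4) are therefore set beside both groups at the end. Their titles do not say whether these mice received the vehicle, and the labels do not say that each library came from a separate mouse, so p-values measure only the spread between these libraries.

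Metabolic dysfunction-associated steatohepatitis (MASH) is a fatty liver with inflammation, hepatocyte injury and scarring. C18:1 denotes a monounsaturated fatty acid with an 18-carbon chain, the kind of chain that stearoyl-CoA desaturase makes and that is abundant in stored triglyceride. Hepatocytes normally supply plasma proteins, bile acids, urea and drug-metabolising enzymes and give most of the RNA of a liver. In steatohepatitis, monocyte-derived macrophages gather around lipid-laden hepatocytes, and stellate cells, the vitamin A-storing pericytes of the liver, lay down fibrillar collagen.

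The treatment tag of C18:1 replicate 1 names the diet alone, against its title, and a result is given also without it where that changes a call or moves a count by more than 1.5 times. A second library, C18:1-leucine replicate 1, is tagged as OA against its title. It enters the C18:1 group only where groups were taken from the tags. The shallowest of the 8 libraries was C18:1 replicate 2 with 33821874 counts, and the deepest was C18:1 replicate 3 with 50082542. Of 45706 genes in the table, 15674 passed the filter on low counts. No pair of libraries of a group agreed within counting error, since the chi-square per gene between them was 25.0 to 105. Hepatocyte markers were abundant in all 8 libraries, with Alb (albumin) alone at 52309, 65494, 61327 and 70994 CPM (counts scaled to the library total) in chow replicates 1 to 4 and 28825, 31687, 29571 and 29859 CPM in C18:1 replicates 1 to 4. On the first principal component of log2 CPM, which held 57.0% of the variance over all 14 libraries, the chow libraries lay between −74.0 and −66.2 and the C18:1 libraries at 69.8, 25.2, 53.4 and 50.7 (replicates 1 to 4). The root mean square log2 difference over the tested genes was 0.427 to 0.583 between chow libraries and 0.452 to 0.646 between C18:1 libraries, and 0.879 to 1.21 for the 16 pairs that cross the groups. Every crossing pair was thus farther apart than any pair within either group. Transcripts of a neighbouring tissue stood out in chow replicate 2, where pancreatic enzyme genes summed to 257 CPM against 7.68, 5.49 and 7.30 CPM in the other chow libraries.

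**Figure D1:**
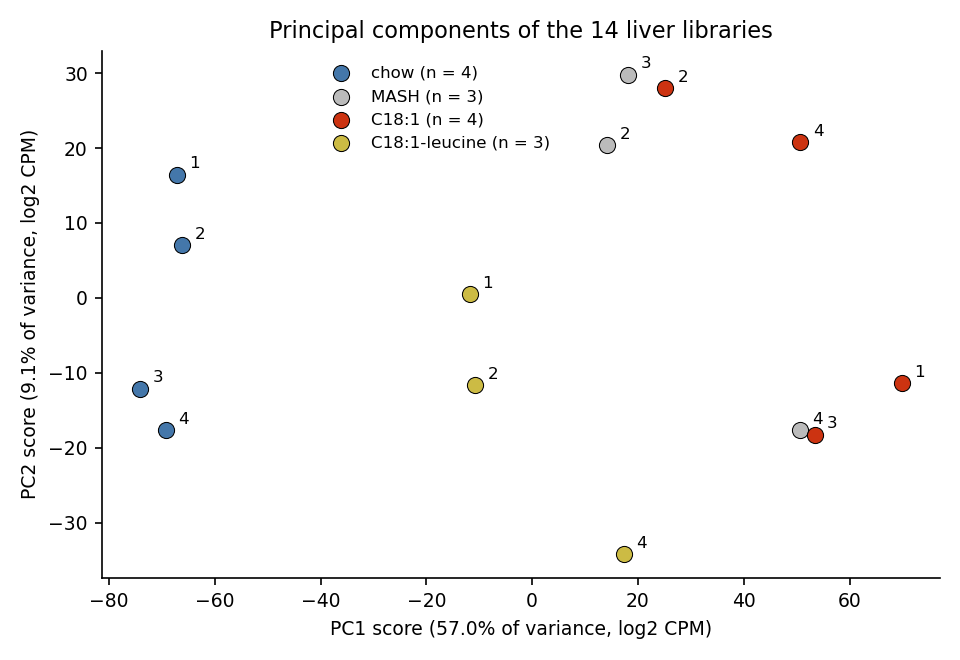
First and second principal component scores of the 14 libraries, from log2 CPM of the tested genes, with each point 1 library, its replicate number beside it and its colour the group. The 4 chow libraries lie at −74.0 to −66.2 on the first component and the 4 C18:1 libraries at 25.2 to 69.8, with the 3 MASH libraries at 14.2 to 50.6.

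Of the 15674 genes, 8252 passed an adjusted p of 0.05 (52.6%; edgeR quasi-likelihood test, Benjamini-Hochberg adjustment over all tested genes), 4351 higher (27.8%) and 3901 lower (24.9%) in C18:1-treated MASH liver. At least a 2-fold change was seen for 2658 higher genes (17.0%) and 437 lower ones (2.79%), 3095 in all (19.7%). The rises were the larger changes: their median size was 1.28 on the log2 scale, against 0.43 for the falls. The fallen genes nonetheless held the larger part of the RNA. They took 60.6% to 64.5% of the counts of the chow libraries and 46.7% to 50.2% of those of the C18:1 libraries, while the risen genes took 4.64% to 4.99% in chow and 11.1% to 14.2% with C18:1. The 4 and 4 libraries did not overlap for 7303 genes (46.6%). Genes named by rule had to be free of overlap, so for them this trait was set in advance and adds no support. In whole liver, fewer cells of a type and less RNA per cell cannot be told apart. With 52.6% of genes called, the counts of the gene lists below are read against the 27.8% of genes higher and 24.9% lower. Without C18:1 replicate 1, 3797 genes were higher and 3156 lower. Fits without C18:1 replicates 1 and 3 together have a smaller C18:1 group, so calls lost there can come from fewer libraries alone. The TMM factors that scaled the library totals were 0.856 to 0.892 in chow and 1.04 to 1.21 in C18:1 libraries. Relative to unscaled totals, this shifts every gene toward a fall with C18:1, so calls of small falls depend on the scaling. No fit with unscaled totals was run.

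**Figure D2:**
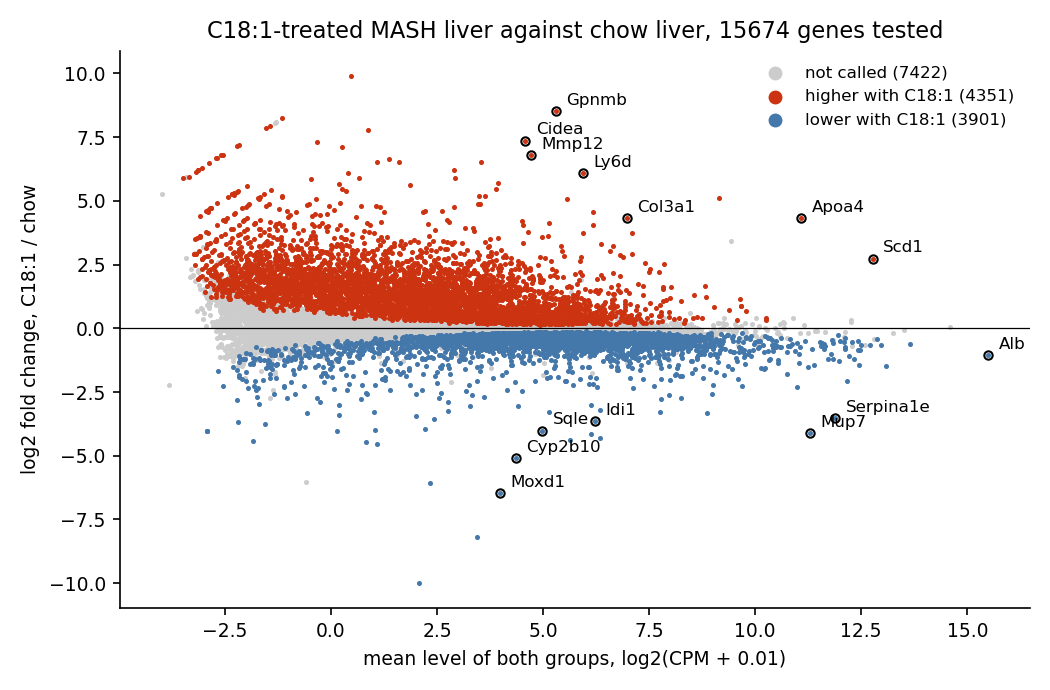
Log2 fold change of C18:1 over chow against the mean level of both groups, log2(CPM + 0.01), for each tested gene, coloured by the call (adjusted p below 0.05, edgeR), with 14 genes circled and named. The 4351 higher genes reach farther from 0 than the 3901 lower ones, and the fallen genes include the abundant Alb, Serpina1e and Mup7.

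Cholesterol synthesis fell nearly as a whole. Of its 20 enzymes, 19 were lower, none was higher, and the median log2 fold change was −1.80 against −0.01 over all genes. This pathway builds sterol from acetyl-CoA and is switched on by the transcription factor SREBP-2 (Srebf2) when cell cholesterol is low. Sqle, the epoxidase that commits squalene to sterol, stood at 40.1, 53.2, 40.1 and 105 CPM in the 4 chow libraries and 6.52, 1.14, 4.39 and 2.48 CPM in the 4 C18:1 libraries. All 4 chow libraries lay above all 4 C18:1 libraries, and chow replicate 4 was the highest. The log2 fold change was −4.01 ± 0.60 (SE; adjusted p = 0.000188, edgeR). Idi1, the isomerase of the isoprenoid building block, went from 139 ± 67.1 to 11.1 ± 6.45 CPM (SD, n = 4 each). Msmo1 and Cyp51 both demethylate lanosterol or its products, and their log2 fold changes were −3.22 and −2.99. Chow replicate 4 had the highest chow level for 19 of the 20 genes, and without it the list median was −1.51 and 19 members were lower.

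Promoters of the cholesterol genes are shown because members of this list moved together. RefSeq's table held a promoter for 15 of the 20 enzymes, taken here as the 250 bases before the gene's start in GRCm38.p6. The motifs were CCAAT, the box bound by NF-Y, and CACCCCAC, which forms the core of a known SREBP site, both searched on either strand. CCAAT was found for 14 of the 15 genes (93.3%), against 37.5% of all 27025 genes with a promoter in the table. It is not particular to this list, since 10 of 12 antigen presentation genes with a promoter held it too (83.3%). CACCCCAC was found for 2 of the 15 (13.3%) against 2.98% of all genes. This motif is not particular to the list either, since 2 of 12 antigen presentation genes held it (16.7%). None of the sterol sensing, uptake and export genes did (0 of 13). A match of letters does not show that a factor binds there. The sequences run 5′ to 3′ toward the gene's start, and capitals mark CCAAT (or ATTGG, its other strand) and CACCCCAC, of which Hmgcs1 alone of these 4 holds a copy. The 2 motifs do not overlap in these promoters.
Idi1 (chr13:8885356-8885605, plus strand): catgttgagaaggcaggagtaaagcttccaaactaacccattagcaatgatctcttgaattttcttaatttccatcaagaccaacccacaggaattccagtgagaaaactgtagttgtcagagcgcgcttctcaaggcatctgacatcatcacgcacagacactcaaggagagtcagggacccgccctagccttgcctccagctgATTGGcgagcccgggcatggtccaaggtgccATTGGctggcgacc
Msmo1 (chr8:64733579-64733828, minus strand): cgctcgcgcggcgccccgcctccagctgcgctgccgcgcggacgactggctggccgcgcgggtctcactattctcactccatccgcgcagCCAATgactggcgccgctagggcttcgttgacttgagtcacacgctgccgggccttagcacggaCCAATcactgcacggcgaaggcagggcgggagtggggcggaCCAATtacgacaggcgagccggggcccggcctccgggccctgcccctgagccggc
Hmgcs1 (chr13:119690101-119690350, plus strand): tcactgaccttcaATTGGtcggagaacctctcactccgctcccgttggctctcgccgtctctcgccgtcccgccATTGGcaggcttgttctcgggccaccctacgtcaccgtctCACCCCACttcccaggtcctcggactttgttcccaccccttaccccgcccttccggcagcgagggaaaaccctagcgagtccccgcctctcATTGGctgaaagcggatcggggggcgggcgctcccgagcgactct
Cyp51 (chr5:4104698-4104947, minus strand): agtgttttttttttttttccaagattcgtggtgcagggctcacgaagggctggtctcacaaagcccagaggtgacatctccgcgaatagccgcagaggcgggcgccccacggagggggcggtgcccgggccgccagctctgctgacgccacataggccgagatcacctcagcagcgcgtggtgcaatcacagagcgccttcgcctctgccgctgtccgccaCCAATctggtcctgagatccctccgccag
The Hmgcs1 and Msmo1 promoters hold 3 CCAAT boxes each, that of Idi1 holds 2 and that of Cyp51 holds 1. Log2 fold changes of the 4 genes were −1.45, −3.22, −3.65 and −2.99, which does not follow the number of boxes.

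Of 19 genes of sterol sensing, uptake and export 7 were lower (36.8%) and 4 higher (21.1%). Srebf2 itself fell by 0.81 on the log2 scale and its escort protein Scap by 0.53. The SREBP-2 targets Insig1 (which retains SREBP in the ER) and Stard4 (a sterol carrier) had log2 fold changes of −2.76 and −2.29. Stard4 read 95.2, 131, 110.4 and 173 CPM in chow and 27.2, 23.8, 32.3 and 21.2 CPM with C18:1. In the other direction, Abcg1 and Abca1, which export cholesterol, rose by 2.36 and 0.48, and Soat1, which esterifies cholesterol in macrophages, rose by 1.72. Soat2, the hepatocyte esterifying enzyme, was at 37.3 ± 7.52 and 42.3 ± 3.60 CPM (adjusted p = 0.279), and the LXR gene Nr1h3 at 102 ± 4.77 and 101 ± 13.1 CPM (adjusted p = 0.902).

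Among genes of fatty acid synthesis, desaturation and elongation 9 of 20 were higher (45%) and 5 lower (25%). Scd1, the stearoyl-CoA desaturase whose product is C18:1 itself, was at 437, 2203, 1491 and 3206 CPM in chow and 13645, 18212, 10067 and 6827 CPM in C18:1 livers. Its gain in mean CPM was the largest of all tested genes, and every C18:1 library lay above every chow library (log2 fold change 2.73 ± 0.48, adjusted p = 0.000530, edgeR). Its relative Scd2 rose by 2.58, the elongases Elovl7 and Elovl6 by 3.60 and 1.01, and Acaca, which makes malonyl-CoA, by 1.01. Fasn, the fatty acid synthase, stood at 272 ± 50.7 and 235 ± 44.3 CPM (adjusted p = 0.371), and Acly and Elovl3 fell by 0.59 and 1.13. The 5 lower became 2 without chow replicate 1 and 3 without C18:1 replicate 4, and 2 without C18:1 replicates 1 and 3 together. The fall of Elovl3 did not pass without chow replicate 1. It also failed without the libraries whose tag and title disagree (adjusted p = 0.0593, edgeR). Without C18:1 replicates 1 and 3 together its adjusted p was 0.143 (edgeR). Of 21 genes of glycerolipid synthesis, which join fatty acids into triglyceride and phospholipid, 6 were higher (28.6%) and 7 lower (33.3%), with a median log2 fold change of −0.16. The 7 became 4 without C18:1 replicates 1 and 3 together.

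Among 16 genes of the lipid droplet, 8 were higher and none was lower. Cidea, a droplet fusion protein better known from brown fat, was close to silent in chow at 0.144, 0.208, 0.478 and 0.294 CPM and reached 75.3, 40.2, 40.4 and 34.1 CPM with C18:1. All 4 C18:1 libraries lay above the chow libraries, and C18:1 replicate 1 had the highest level (log2 fold change 7.36 ± 0.69, adjusted p = 6.67e-06). Its paralog Cidec, a fat-specific fusion protein, rose from 5.80 ± 3.34 to 139 ± 10.8 CPM. Of the perilipins, which coat droplets, Plin4 rose by 2.03, Plin2 by 0.87 and Plin3 by 0.78, and Plin5, the perilipin of oxidative tissues, read 119 ± 29.2 and 112 ± 23.6 CPM (adjusted p = 0.766). Pnpla2, the main triglyceride lipase, was at 112 ± 15.98 and 100.2 ± 5.59 CPM (adjusted p = 0.244). Without chow replicate 1, or without C18:1 replicate 4, 1 member was called lower. With groups taken from the tags the rise of Plin2 did not pass (adjusted p = 0.0890).

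Among proteins that take up and bind fatty acids, Cd36, Lpl and Fabp4 rose and the liver transporters Slc27a5 and Slc27a2 fell. Cd36, a fatty acid translocase, was at 61.6, 85.0, 92.0 and 78.8 CPM in chow and 242, 252, 248 and 251 CPM with C18:1, where the C18:1 libraries lay close together and clear of chow (log2 fold change 1.65 ± 0.15, adjusted p = 3.58e-06). Lpl, the lipoprotein lipase, rose from 19.5 ± 4.13 to 181.3 ± 26.6 CPM, and Fabp4, the binding protein of adipocytes and macrophages, from 9.95 ± 1.35 to 62.8 ± 16.2 CPM. Fabp3 and Aqp7, the heart binding protein and the glycerol channel of fat, had only 2 and 2 counts over the 4 chow libraries. Their pooled ratios were 176 (interval 48.4 to 1457) and 271 (74.7 to 2239.9), with exact binomial intervals that cover counting error only. The liver fatty acid transporters Slc27a5 and Slc27a2 fell by 0.92 and 0.61 and the acyl-CoA synthetase Acsl1 by 0.90, and the liver binding protein Fabp1 was at 2813 ± 393 and 2591 ± 204 CPM (adjusted p = 0.489). Of the 20 genes 8 were higher (40%) and 5 lower (25%), the latter 3 with groups taken from the tags, where Acsl1 no longer passed. Pparg, the nuclear receptor of fat storage, rose from 7.04 ± 1.402 to 19.9 ± 2.83 CPM (adjusted p = 0.000258).

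**Figure D3:**
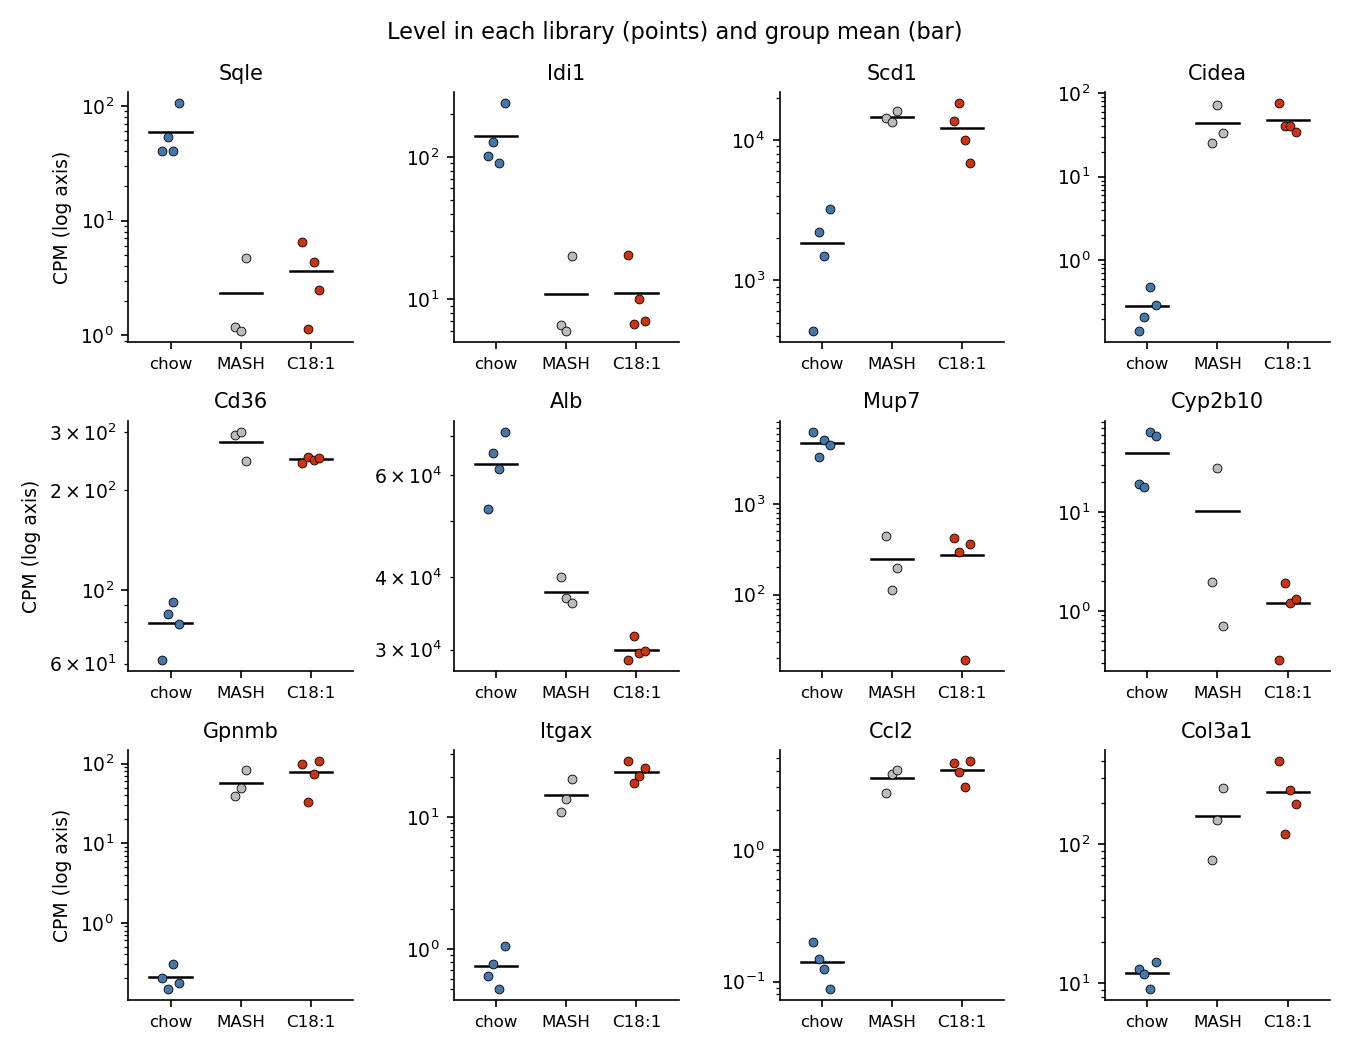
Level of 12 genes in each chow (n = 4), MASH (n = 3) and C18:1 (n = 4) library, in CPM on a log axis that differs between panels, with points for libraries and a bar for the group mean. In each panel the 4 C18:1 libraries lie apart from the 4 chow libraries. Genes named by rule had to show this separation, and 46.6% of all tested genes did so.

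PPARα (Ppara) is the receptor that senses fatty acids and drives their oxidation, and its own transcript stood at 139.8, 136, 161 and 130.3 CPM in chow and 126, 139.7, 126 and 92.5 CPM with C18:1. These ranges overlapped, and the log2 fold change of −0.23 ± 0.13 did not pass (adjusted p = 0.160). Of 37 oxidation genes and PPARα targets 5 were higher and 15 lower. The largest falls were in the omega-hydroxylases Cyp4a14 and Cyp4a10, from 3406 ± 1119 to 684 ± 340.1 CPM and from 2672 ± 764 to 775 ± 288 CPM, and in the thioesterase Acot3, from 15.5 ± 2.10 to 2.78 ± 1.39 CPM. Cpt1a, the rate-setting enzyme of fatty acid entry into mitochondria, read 677 ± 88.5 and 667 ± 69.5 CPM (adjusted p = 0.892). The 5 that rose were Fgf21 (a hepatokine of metabolic stress), Acot2, Aldh3a2, Pdk4 and Bdh1, with log2 fold changes of 2.83, 1.37, 1.16, 1.05 and 0.37. With groups taken from the tags, 5 of the list were lower and Acot3 no longer passed. Without C18:1 replicates 1 and 3 together, 8 were lower and 3 higher. Cyp4a14 then had a log2 fold change of −1.97 and Bdh1 of 0.29, neither past the threshold, with adjusted p of 0.0550 and 0.0902. The rise of Pdk4 was lost when any of chow replicates 2, 3 and 4 or C18:1 replicates 1, 3 and 4 was left out. All 26 nuclear-coded respiratory chain subunits examined fell by a small amount, from −0.66 for Ndufb5 to −0.28 for Sdhc. Falls of this size depend on the TMM scaling described above. The mitochondrially coded mt-Co1 fell by 0.61.

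Of 20 genes of apolipoproteins and lipoprotein handling 12 were lower and 3 higher. Apoa4, an apolipoprotein of triglyceride-rich particles, stood at 167, 123, 295 and 245 CPM in chow and 5109, 2781, 4918 and 3825 CPM with C18:1. The groups did not overlap (log2 fold change 4.33 ± 0.30, adjusted p = 6.44e-07, edgeR). Apoc2, the activator of lipoprotein lipase, and Pltp, a phospholipid transfer protein, rose by 1.09 and 1.17. Those that fell include Apom, which carries sphingosine-1-phosphate, by 1.33, Apoa1, the main protein of HDL, by 0.65, Apob, the scaffold of VLDL, by 0.44, and Lipc, the hepatic lipase, by 0.63. Apoe read 24331 ± 922 and 25479 ± 1667 CPM (adjusted p = 0.590). With groups taken from the tags 7 members were lower, and Apoa1 and Apob did not pass.

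Hepatocyte marker and plasma protein genes fell. All 12 hepatocyte markers were lower, with a median log2 fold change of −0.998. Each of the 12 is also in another list described here, so these counts are not separate from those of the other lists. Alb fell from 62531 ± 7881 to 29986 ± 1215 CPM (log2 fold change −1.06 ± 0.14, adjusted p = 4.29e-05), and its highest C18:1 library stayed below its lowest chow library. Of 39 genes of plasma proteins, coagulation and complement 27 were lower and none was higher. C8b, a chain of the membrane attack complex, fell by 1.84, Serpinc1 (antithrombin) by 0.74 and Serpina3k by 1.47. Transferrin (Trf) read 11790.1 ± 1632 and 11367 ± 1048 CPM (adjusted p = 0.790) and C3 8142 ± 1925 and 6135 ± 1286 CPM (adjusted p = 0.160). Hnf4a and Nr1i3, the master regulator of hepatocytes and the xenobiotic receptor CAR, fell by 1.01 and 1.60, and 8 of 18 hepatocyte transcription factors were lower. The 8 became 5 without chow replicate 1 and 5 without C18:1 replicate 1. With groups taken from the tags 6 of the 12 hepatocyte markers, 15 of the plasma proteins and 3 of the transcription factors were lower.

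Genes of drug and steroid metabolism fell. Of 33 genes in the list of cytochromes P450 of families 1 to 3 with their regulators, 26 were lower and 1 was higher, with a median log2 fold change of −1.16. Cyp2b10, the classical target of CAR, was at 18.96, 17.6, 63.4 and 58.5 CPM in chow and 0.321, 1.93, 1.204 and 1.33 CPM with C18:1, where chow replicates 1 and 2 were lower than 3 and 4 and no library of the groups overlapped (log2 fold change −5.08 ± 1.09, adjusted p = 0.00212). Cyp2c54, Cyp2c50 and Cyp2c29 fell by 3.29, 2.24 and 2.59, and the abundant Cyp3a11 and Cyp2e1 by 1.19 and 0.85. Cyp2a22 was the higher one, at 2.09 ± 0.712 and 9.96 ± 4.87 CPM. Of 34 conjugation enzymes 22 were lower, such as the sulfotransferase Sult2a8 at 689.9 ± 43.7 and 178 ± 39.7 CPM, and 3 glutathione transferases were higher, namely Gstm3 by 2.32, Gsta1 by 2.16 and Gstm2 by 0.74. Without C18:1 replicates 1 and 3 together, Cyp2b10 had a log2 fold change of −4.64 that did not pass (adjusted p = 0.0554), and the rise of Gstm2 did not pass either. Members of the Cyp2c, Mup and Serpina1 families have near-identical copies, and the sources used here do not say how reads were shared between copies, so their separate values are uncertain.

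Genes that male mice express above females had the lowest median of the lists with at least 10 tested genes, with 19 of 21 lower and a median log2 fold change of −2.07. They are kept up by the pulses of growth hormone in males. Mup7, a major urinary protein, was at 6196, 3288, 5126 and 4473 CPM in chow and 422, 299, 19.05 and 366 CPM with C18:1, C18:1 replicate 3 lying far below the other C18:1 libraries and all 4 below chow (log2 fold change −4.11 ± 0.79, adjusted p = 0.00104). Serpina1e fell from 7003 ± 719.5 to 604 ± 205 CPM, and the steroid enzyme Hsd3b5 from 64.0 ± 21.9 to 6.55 ± 6.81 CPM. Moxd1, a monooxygenase, fell from 36.1, 42.03, 7.58 and 39.1 to 0.822, 0.455, 0 and 0.174 CPM (replicates 1 to 4). Its log2 fold change of −6.46 was −0.40 with groups from the tags and did not pass then. By limma voom the change of Moxd1 was −7.30 and did not pass either (adjusted p = 0.0569). Mup20 (darcin) read 10497 ± 1609 and 9119 ± 2975 CPM (adjusted p = 0.549). Female-biased genes did not rise in turn, since none of 8 was higher and 3 were lower, although 1 was higher without chow replicate 2 or without C18:1 replicate 2. Of 17 genes of the growth hormone and IGF-1 axis 7 were lower (41.2%) and 3 higher (17.6%), the latter Stat5a, Igfbp3 and Jak2. The receptor Ghr and its target Igf1 fell by 0.45 and 0.85, Igfals by 1.16 and the prolactin receptor Prlr by 2.21. The signal transducer Stat5b read 72.9 ± 12.8 and 62.1 ± 5.16 CPM (adjusted p = 0.0796), and it was called lower without chow replicate 3, without chow replicate 4 and with groups from the tags (adjusted p = 0.0264, 0.0337 and 0.0410). With groups from the tags 12 male-biased genes were lower and the falls of Ghr, Igf1, Igfals, Hsd3b5 and Mup7 did not pass.

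Bile acid genes fell, but the first step of the main pathway did not pass the test. Cyp7b1 and Cyp8b1, the hydroxylases of the alternative pathway and of cholic acid, fell from 261 ± 84.8 to 65.8 ± 22.7 CPM and from 512 ± 184 to 208 ± 45.5 CPM. The uptake carriers Slc10a1 (NTCP) and Slco1a1 fell by 1.01 and 1.98, the conjugating enzyme Baat by 0.82 and the receptor Nr1h4 (FXR) by 0.45. Cyp7a1, the rate-limiting enzyme, read 13.7, 61.6, 67.1 and 172 CPM in chow and 53.0, 103, 48.0 and 31.003 CPM with C18:1, overlapping ranges with an adjusted p of 0.630. Of 24 genes 13 were lower and 1 was higher, the basolateral exporter subunit Slc51b. The fall of Cyp8b1 did not pass without C18:1 replicates 1 and 3 together, nor that of Nr1h4 with groups from the tags.

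Amino acid catabolism fell broadly. Of 34 genes of the urea cycle and amino acid breakdown 28 were lower, among them Asl (argininosuccinate lyase) from 962 ± 330.1 to 270.2 ± 102 CPM, Gnmt (glycine methyltransferase) from 1796 ± 438 to 615 ± 243 CPM and Otc from 444 ± 22.3 to 237 ± 37.6 CPM. Glul (glutamine synthetase) alone was higher, at 1054 ± 41.3 and 1402 ± 185 CPM, a call that was lost when chow replicate 1 or 2 or C18:1 replicate 2 or 3 was left out. In branched-chain amino acid and propionate catabolism, 20 of 21 genes fell, led by Acadsb (a short branched-chain acyl-CoA dehydrogenase) from 174 ± 7.48 to 86.6 ± 9.38 CPM. The list median was −0.48 and only 1 of the falls reached 2-fold, so calls of the smaller falls depend on the TMM scaling described above. The only higher member was Bckdk, the kinase that shuts the pathway's dehydrogenase off, by 0.26 (adjusted p = 0.0445), which did not pass when chow replicate 1, 2 or 4 or C18:1 replicate 1, 2 or 3 was left out. With groups from the tags, 14 of the 34 and 7 of the 21 were lower. Of 26 genes of glucose metabolism and insulin response 6 were higher (23.1%) and 9 lower (34.6%), and 5 lower without C18:1 replicates 1 and 3 together. Pck1 (gluconeogenesis) fell by 1.28 and the glycogen-targeting subunit Ppp1r3b by 1.47. Hk2 and Pkm, isoforms of glycolytic enzymes that other cells use, rose, Hk2 from 2.45 ± 0.858 to 19.3 ± 3.17 CPM and Pkm from 20.7 ± 1.17 to 96.0 ± 20.8 CPM.

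**Figure D4:**
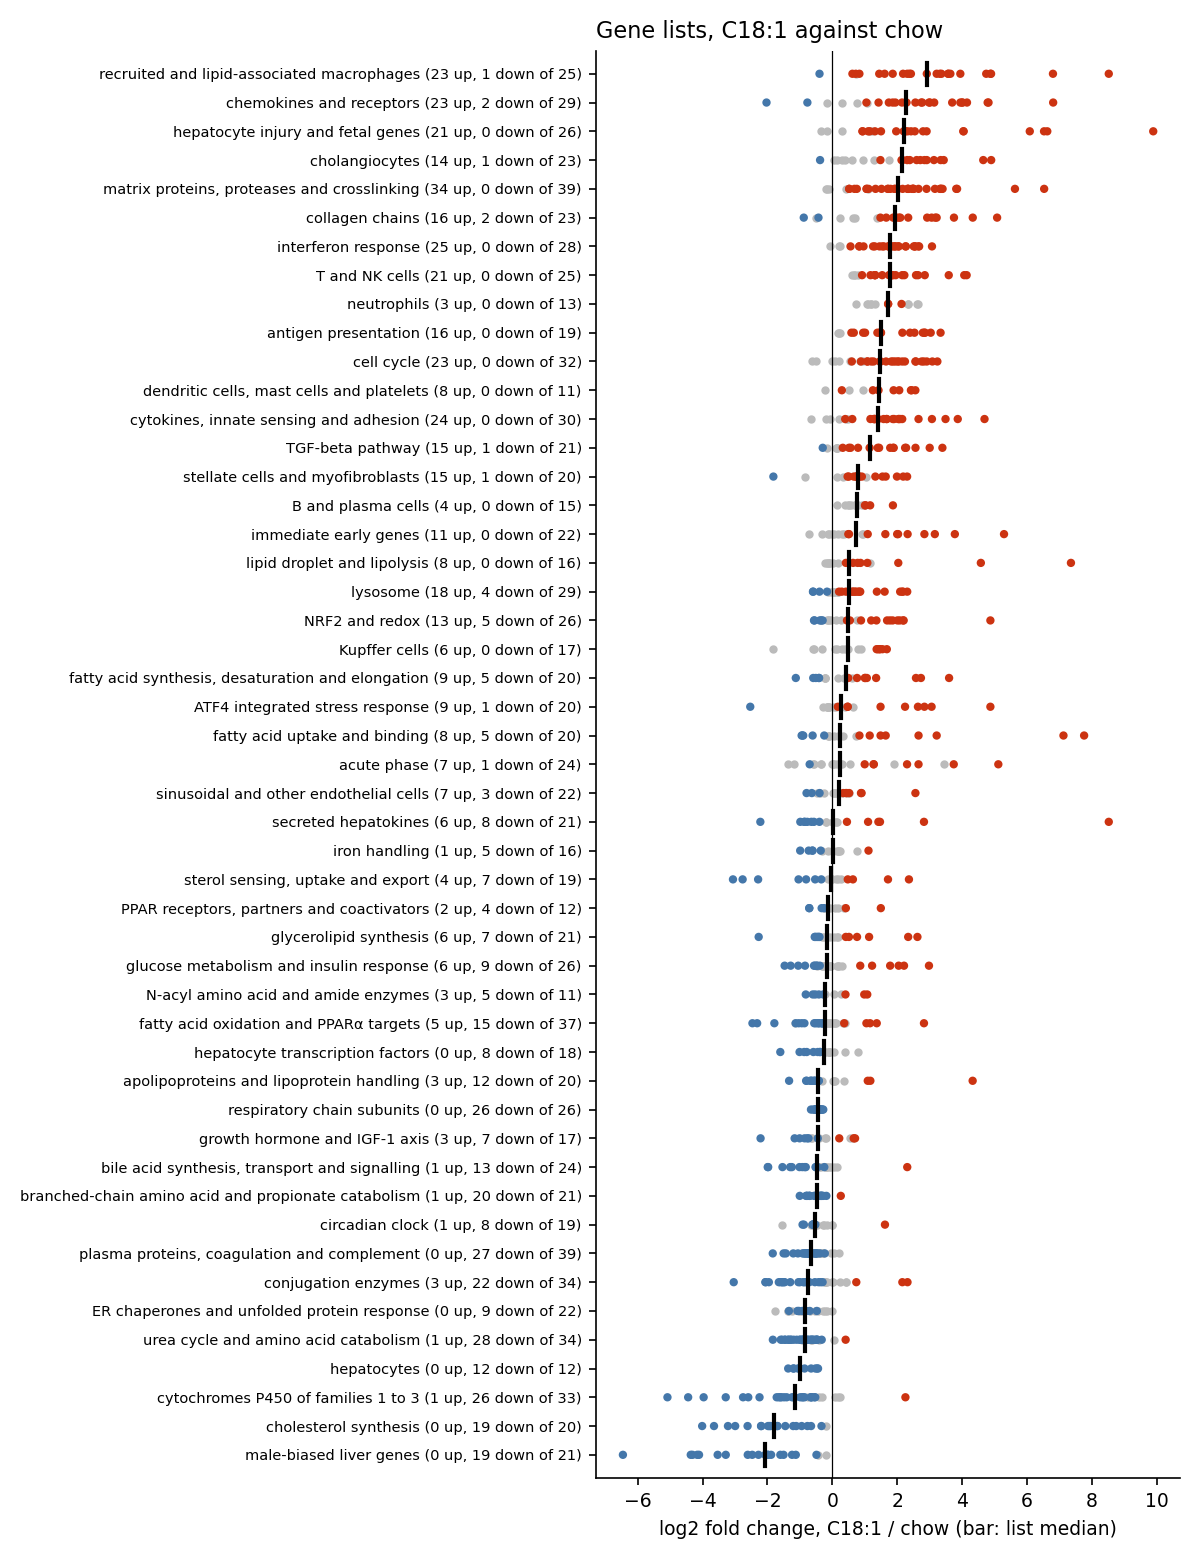
Log2 fold change of C18:1 over chow for each tested gene of the lists with at least 10 tested members, 1 row a list and 1 point a gene, red and blue for genes called higher and lower, grey for the rest, and a black bar at the list's median. Macrophage, chemokine, injury, cholangiocyte and matrix lists lie at the top, and P450, cholesterol synthesis and male-biased lists at the bottom.

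Macrophage genes had the highest median of the lists with at least 10 tested genes. Of 25 genes of recruited and lipid-associated macrophages 23 were higher and the median log2 fold change was 2.91. Gpnmb, a glycoprotein of lipid-laden macrophages, was at 0.201, 0.148, 0.302 and 0.177 CPM in chow and 100.1, 32.9, 73.9 and 107 CPM with C18:1. Mmp12, the macrophage elastase, was at 0.403, 0.385, 0.453 and 0.618 and 55.4, 62.99, 37.003 and 53.3 CPM. The groups did not overlap for either gene, and the log2 fold changes were 8.52 ± 0.82 and 6.802 ± 0.38 (adjusted p = 7.68e-06 and 3.13e-07, edgeR). Itgax (CD11c), Trem2, a lipid-sensing receptor, and Lgals3 (galectin-3) rose from 0.742 ± 0.238 to 21.96 ± 3.62, from 0.729 ± 0.131 to 21.3 ± 8.49 and from 4.91 ± 0.695 to 58.4 ± 11.2 CPM. Spp1 (osteopontin) rose from 32.3 ± 5.10 to 243 ± 148 CPM, and without C18:1 replicates 1 and 3 its change of 1.83 did not pass (adjusted p = 0.0598). Ctsl (cathepsin L), which hepatocytes express too, was the lone lower member, and that call was lost without chow replicate 3 or C18:1 replicate 1.

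Of 17 markers of resident Kupffer cells 6 were higher (35.3%, against 27.8% of all genes) and none was lower. Csf1r, the complement genes C1qa and C1qb and Adgre1 (F4/80), which recruited macrophages share, rose by 1.37, 1.3996, 1.68 and 1.46, and C1qc and Cd5l were the other higher members. Clec4f, Timd4 and Vsig4 read 116 ± 26.3 and 143 ± 63.9, 6.01 ± 1.31 and 4.12 ± 3.62, and 31.2 ± 6.83 and 43.4 ± 12.6 CPM, none past the threshold. Cd163, a haemoglobin scavenger receptor, read 48.4, 62.96, 39.8 and 47.1 CPM in chow and 2.85, 33.9, 6.58 and 12.6 CPM with C18:1, ranges that did not overlap, with an adjusted p of 0.0870. It was called lower without C18:1 replicate 2 (adjusted p = 0.0233), by limma voom and with the compared groups alone. Without C18:1 replicate 2, 2 members of the list were lower.

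Chemokines and inflammatory sensors rose with the macrophage genes. Ccl2, the main attractant of monocytes, was at 0.201, 0.148, 0.126 and 0.0883 CPM in chow and 4.57, 3.89, 3.02 and 4.70 CPM with C18:1 (log2 fold change 4.82 ± 0.28, adjusted p = 3.13e-07). Its receptor Ccr2 rose from 1.09 ± 0.289 to 16.8 ± 1.93 CPM, so that ligand and receptor moved in the same direction with no overlap of libraries for either. Cxcl9 and Cxcl10, which draw T cells, rose by 2.77 and 2.74, and Cxcl16 by 1.86. Cxcl5, a neutrophil attractant, had no counts in chow and 61 over the C18:1 libraries, at least 15.5-fold higher by a floor of 3 counts over the chow group. Of 29 chemokines and receptors 23 were higher and 2 lower, the lower ones being Cxcl12, a stromal chemokine, by 0.77 and Cxcl13 by 2.03. Leaving out any 1 chow library, or C18:1 replicate 1, 3 or 4, left 1 lower. With groups from the tags Cxcl12 and Cxcl13 did not pass. Of 30 cytokines, innate sensors and adhesion molecules 24 were higher, such as Tlr1 (a lipopeptide sensor) by 3.07, Il1rn (the IL-1 receptor antagonist) by 2.66, Icam1 by 1.58 and Tnf, from 0.0497 ± 0.0641 to 0.764 ± 0.190 CPM. Il1b and Il1a read 7.68 ± 1.62 and 10.9 ± 4.11 CPM and 4.70 ± 1.11 and 6.33 ± 1.51 CPM, with adjusted p of 0.287 and 0.165.

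Interferon-stimulated genes rose in 25 of 28 cases, with a median log2 fold change of 1.78. Oasl2, an oligoadenylate synthase-like protein, was at 3.999, 3.79, 3.52 and 2.94 CPM in chow and 19.4, 18.5, 20.5 and 25.05 CPM with C18:1, without overlap (log2 fold change 2.55 ± 0.14, adjusted p = 2.53e-07). Isg15, a ubiquitin-like modifier, and Ifit1, an RNA-binding effector, rose from 5.64 ± 0.595 to 20.02 ± 4.94 CPM and from 7.49 ± 0.890 to 22.6 ± 6.50 CPM. Stat2, which carries the signal, read 63.1 ± 15.01 and 73.5 ± 8.69 CPM (adjusted p = 0.202). Without chow replicate 1, its highest chow library, Stat2 passed with a log2 fold change of 0.40 (adjusted p = 0.00662). By limma voom Stat2 passed too (log2 fold change 0.35, adjusted p = 0.0248). The core of the interferon-stimulated response element, read as GAAA, any 2 bases and GAAA again, was found on either strand for 12 of the 20 list members with a promoter in RefSeq's table (60%), against 3.46% of all genes. This motif was searched because the list rose together. Both genes whose promoters follow (GRCm38.p6, 250 bases before the start) hold it, in capitals, which reads TTTC, 2 bases and TTTC where it lies on the other strand.
Isg15 (chr4:156200819-156201068, minus strand): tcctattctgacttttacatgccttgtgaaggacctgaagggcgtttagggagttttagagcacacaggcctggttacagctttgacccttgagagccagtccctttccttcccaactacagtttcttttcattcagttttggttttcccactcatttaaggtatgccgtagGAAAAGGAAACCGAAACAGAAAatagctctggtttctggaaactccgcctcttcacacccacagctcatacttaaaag
Ifit1 (chr19:34640639-34640888, plus strand): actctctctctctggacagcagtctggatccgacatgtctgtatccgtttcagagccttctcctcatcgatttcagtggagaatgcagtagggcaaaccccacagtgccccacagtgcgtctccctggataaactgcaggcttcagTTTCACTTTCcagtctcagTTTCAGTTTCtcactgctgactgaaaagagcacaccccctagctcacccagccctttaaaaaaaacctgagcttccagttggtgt
In Isg15 there are 3 overlapping copies and in Ifit1 there are 2 separate ones.

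Genes of antigen presentation and of T and NK cells rose too. The class II genes H2-Ab1, H2-Aa and Cd74 (the invariant chain) rose by 2.79, 2.86 and 2.53, and their master activator Ciita by 3.34. The class I genes H2-K1 and B2m read 1439.5 ± 91.7 and 1609 ± 191 CPM and 808 ± 91.2 and 937 ± 126 CPM, both short of the threshold (adjusted p = 0.207 and 0.111), though B2m passed by limma voom. Of 19 genes of antigen presentation 16 were higher. Of 25 genes of T and NK cells 21 were higher, from low levels, with Cd8a at 0.285 ± 0.221 and 1.36 ± 0.616 CPM and the inhibitory receptor Pdcd1 (PD-1) at 0.0461 ± 0.0550 and 0.854 ± 0.690 CPM. With groups from the tags 12 of the 25 were higher. Of 15 B and plasma cell genes 4 were higher (26.7%, near the 27.8% of all genes), led by Cd22, and without C18:1 replicate 1 only 1 was. Of 13 neutrophil genes 3 were higher (23.1%), 5 without chow replicate 1, 1 without chow replicate 4 and 11 with groups from the tags. The summed neutrophil level was 42.6 CPM in C18:1 replicate 2 and 17.1 CPM in the lowest C18:1 library.

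The matrix genes that mark scarring rose. Of 23 collagen chains 16 were higher, with the fibril-forming Col1a1 from 2.73 ± 0.978 to 92.1 ± 42.3 CPM and Col1a2 from 8.44 ± 1.37 to 114 ± 50.1 CPM. Col3a1 was at 12.6, 11.7, 9.14 and 14.3 CPM in chow and 396, 118, 248 and 197 CPM with C18:1. The C18:1 libraries differed among themselves, replicate 1 being the highest and replicate 2 the lowest, and all lay above chow (log2 fold change 4.33 ± 0.44, adjusted p = 1.00e-05). Col4a1 of basement membranes rose by 2.10. The 2 chains that fell were Col18a1, which hepatocytes make and which yields endostatin, by 0.43, and Col7a1 by 0.88. Without chow replicate 1, 1 chain was lower, and with groups from the tags neither Col18a1 nor Col7a1 passed. Of 39 matrix proteins, proteases and crosslinking enzymes 34 were higher and none was lower. Timp1, which inhibits metalloproteinases, was at 0.0863, 0.0593, 0 and 0.0294 CPM and 5.70, 2.56, 5.52 and 2.91 CPM, and the collagenase Mmp13 rose by 5.63, so a protease and an inhibitor rose side by side. Lox and Loxl1, which crosslink collagen, rose by 3.82 and 3.36, and fibronectin (Fn1), which hepatocytes secrete in bulk, read 1557 ± 237 and 1369.9 ± 169 CPM (adjusted p = 0.360).

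Stellate cell and TGF-beta genes rose with the matrix. Pdgfrb, the receptor of activated stellate cells, rose from 6.76 ± 0.968 to 33.4 ± 13.1 CPM, and Cygb, a globin of stellate cells, from 8.55 ± 0.969 to 34.001 ± 14.9 CPM. Acta2, the smooth muscle actin of myofibroblasts, read 4.98, 0.889, 0.982 and 1.18 CPM in chow and 4.01, 5.20, 3.79 and 3.63 CPM with C18:1, overlapping ranges (adjusted p = 0.113). Without chow replicate 1, its highest chow library, Acta2 was called higher with a log2 fold change of 2.03 (adjusted p = 0.00146). It was also called higher by limma voom (log2 fold change 1.70, adjusted p = 0.00416). Lrat, which stores vitamin A in quiescent stellate cells, rose by 0.66, and Hhip, a hedgehog inhibitor, fell by 1.82. The call of Lrat was lost without chow replicate 2 or 4 or C18:1 replicate 1, and that of Hhip with groups from the tags. Of 20 genes 15 were higher and 1 lower, but without C18:1 replicates 1 and 3 together 5 were higher. Of 21 TGF-beta genes 15 were higher, with the ligand Tgfb1 up by 1.401, the receptor Tgfbr2 by 1.15 and the latent binding protein Ltbp2 by 3.39. Smad4, the shared signal transducer, fell by 0.30. It was the lone lower member, and without chow replicate 1 there were 2. The list median of 1.15 was 0.48 without C18:1 replicates 1 and 3.

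Bile duct genes rose unevenly over the C18:1 libraries. Their summed level was 642, 274, 614 and 316 CPM in C18:1 replicates 1 to 4 and 194 to 246 CPM in chow. The list shares Spp1 with the macrophage list. Spp1 alone, by the values given above, makes up most of the rise of the mean sum from 219 to 461 CPM. Of 23 genes 14 were higher, among them Epcam, an adhesion molecule, at 1.87, 1.60, 1.31 and 2.15 CPM in chow and 14.1, 3.21, 12.7 and 4.09 CPM with C18:1, and the tight junction protein Cldn4, from 0.0775 ± 0.0280 to 2.003 ± 1.10 CPM. Krt19, the keratin of bile ducts, read 1.5001 ± 1.75 and 4.97 ± 4.23 CPM (adjusted p = 0.122) and Sox9 5.77 ± 0.768 and 7.0004 ± 1.65 CPM (adjusted p = 0.156). Krt19 was called higher without chow replicate 1, its highest chow library (log2 fold change 2.99, adjusted p = 0.0211), and Sox9 without C18:1 replicate 2 (adjusted p = 0.0130). By limma voom Krt19 was called higher too (log2 fold change 2.45, adjusted p = 0.0223). Without C18:1 replicates 1 and 3, which held most of these transcripts, 3 genes were higher, and with groups from the tags 6. The call of Epcam was lost without chow replicate 3, C18:1 replicate 1 or C18:1 replicate 3. Of 22 endothelial markers 7 were higher (31.8%, near the 27.8% of all genes) and 3 were lower (13.6%), the latter 5 without C18:1 replicate 2. Plvap, a diaphragm protein of capillaries, and Cd34 rose by 0.88 and 2.56, and Bmp2, which sinusoidal cells send to hepatocytes for iron control, fell by 0.79.

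Genes of proliferation and of injured or fetal-like hepatocytes rose. Of 32 cell cycle genes 23 were higher, with Mki67 from 2.13 ± 0.562 to 12.6 ± 4.46 CPM, Ccnd1 (cyclin D1) from 11.2 ± 2.33 to 78.9 ± 17.6 CPM and Mcm2 from 2.604 ± 0.412 to 8.22 ± 0.844 CPM, while Pcna read 33.7 ± 2.34 and 33.2 ± 0.851 CPM (adjusted p = 0.822). Of 26 injury and fetal genes 21 were higher. Ly6d, a small GPI-anchored surface antigen, was at 3.48, 1.48, 1.03 and 1.12 CPM in chow and 118, 106, 115 and 143 CPM with C18:1, with no overlap (log2 fold change 6.09 ± 0.56, adjusted p = 5.48e-06). Anxa2 and S100a11, calcium-binding membrane proteins, rose by 4.04 and 4.05, the tubulins Tubb2a and Tubb2b by 2.54 and 6.63, and the receptor kinase Ephb2 by 6.53. Sprr1a, a cornified envelope protein, had no counts in chow and 523 over the C18:1 libraries, at least 133-fold higher by the same floor of 3 counts. Ucp3, a mitochondrial carrier of muscle, had 1 count in chow and 308 with C18:1, a ratio of 235 (interval 41.8 to 9294).

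Of the stress programmes, ATF4 targets and redox genes did not move as blocks, and ER chaperones were lower or not called. Among 20 targets of ATF4, the factor of the integrated stress response, 9 were higher and 1 lower, or 2 lower without C18:1 replicate 2. Slc7a11, the cystine carrier, and the serine synthesis enzymes Psat1 and Phgdh rose by 4.87, 3.06 and 2.64, but Asns, asparagine synthetase and a classical target, fell from 10.35 ± 2.596 to 1.79 ± 1.09 CPM (log2 fold change −2.53 ± 0.36, adjusted p = 0.000104). Trib3 and Ddit3 (CHOP) read 18.7 ± 3.92 and 16.8 ± 5.45 CPM and 10.6 ± 4.10 and 16.4 ± 6.10 CPM, neither past the threshold. Ddit3 was called higher without chow replicate 1 (log2 fold change 0.93, adjusted p = 0.0146) and by limma voom. ER chaperones had 9 of 22 genes lower and none higher, a count that chow replicate 1 bears on. The list median was −0.84, and every member had a log2 fold change below 0 (highest −0.0064). Hspa5 (BiP) was at 2766, 686, 797 and 958 CPM in the chow libraries and 509.6, 596, 511 and 855 CPM in the C18:1 libraries. Its call as lower was lost when chow replicate 1 or C18:1 replicate 1, 2 or 3 was left out. The call was also lost by limma voom, without the filter, with the compared groups alone and with groups from the tags. The list's summed level in chow was 13634 CPM in replicate 1 and 5224 CPM in the lowest library. Over the C18:1 libraries that summed level was 3538 to 4982 CPM, below every chow library. Without chow replicate 1, 3 or 4 the count of lower genes was 4, 16 or 15, and without C18:1 replicate 1 or 3 it was 4 or 5. Without C18:1 replicates 1 and 3 together it was 0. In the redox list 13 of 26 genes were higher and 5 lower, or 3 lower with groups from the tags. These subunits of the phagocyte NADPH oxidase, Cyba, Cybb, Ncf1 and Ncf4, rose by 2.08, 2.01, 1.36 and 2.20, whereas the NRF2 target Nqo1 read 6.58 ± 1.32 and 7.96 ± 0.568 CPM (adjusted p = 0.160) and Cat (catalase) fell by 0.56.

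Acute phase genes varied widely within both groups. Saa2, a serum amyloid, was at 24.8, 89.8, 5.26 and 6.62 CPM in chow and 142, 962, 3154 and 130.2 CPM with C18:1, and its call (log2 fold change 5.12 ± 1.91, adjusted p = 0.0390) was lost when chow replicate 1, 3 or 4 or C18:1 replicate 2 or 3 was left out. Saa1 read 128, 298, 19.2 and 20.4 and 221, 1546, 3079 and 218 CPM (adjusted p = 0.0797). It was called higher by DESeq2 and limma voom (adjusted p = 0.0187 and 0.0234), with the compared groups alone (0.0383) and with groups from the tags (0.0280). Of 24 genes 7 were higher (29.2%, near the 27.8% of all genes) and 1 lower (3 lower without C18:1 replicate 3). The number higher was 4 without chow replicate 3, without chow replicate 4 or without C18:1 replicate 2. Lysosomal genes rose in 18 of 29 cases, with Cd68 by 2.15 and Psap by 0.86. Some of the 18, such as Ctsb and Ctsd, are in the macrophage list too. Lamp2 and Ctsh fell by 0.60 and 0.59, and the 4 lower calls were 2 without chow replicate 3 or C18:1 replicate 1. Among hepatokines Inhbe (activin E) rose by 1.4202 and Enho fell by 2.22.

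The MASH libraries without C18:1 in their titles lay beside the C18:1 libraries. The root mean square log2 difference of the 12 pairs of a MASH and a C18:1 library was 0.407 to 0.688, a range that spans the 0.452 to 0.646 between C18:1 libraries. Its median from chow was 1.06 for C18:1 and 0.872 for MASH libraries. No gene passed the adjusted threshold in C18:1 against MASH (0%; edgeR, lowest adjusted p = 0.770), 968 (6.18%) had an unadjusted p below 0.05, DESeq2 called 3 and limma voom called 0. MASH against chow called 5563 genes (35.5%) in the same fit, a comparison with 3 instead of 4 diet libraries and with the chow libraries in common, so its calls and those of C18:1 against chow are not independent. A p that misses the threshold does not show that the groups are alike. The 95% interval of the C18:1 to MASH ratio lay within 2-fold either way for 6403 of the 8252 genes called against chow (77.6%), and within 1.5-fold for 4650 (56.4%). For the 3095 genes changed at least 2-fold against chow those intervals were wider, and 1343 (43.4%) lay within 2-fold. Some lists lay mostly on 1 side of MASH. C18:1 was above MASH for 27 of 28 interferon, 19 of 19 antigen presentation and 26 of 29 chemokine genes. It was above for 0 of 26 respiratory chain, 0 of 21 branched-chain and 1 of 37 oxidation genes. Cholesterol synthesis was split (10 of 20), as were all tested genes (7942 of 15674). Whether these lists differ was not tested.

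Single genes show what these intervals allow. Scd1 read 14648 ± 1344 CPM in MASH (SD, n = 3), and its log2 difference of C18:1 from MASH was −0.27 (95% interval −1.32 to 0.79). For Sqle the difference was 0.65 (−0.75 to 2.06), for Gpnmb 0.45 (−0.72 to 1.63), for Ccl2 0.21 (−0.27 to 0.69) and for Ppara −0.13 (−0.44 to 0.17). Each of these intervals held 0. Alb read 40092, 36844 and 36065 CPM in MASH replicates 2, 3 and 4, above all 4 C18:1 libraries, a difference of −0.33 ± 0.15 (SE) whose unadjusted p of 0.0416 gave an adjusted p of 0.770 (edgeR). Cyp2b10 read 1.97, 27.9 and 0.696 CPM there and differed by −3.11 (−5.46 to −0.76), and Acot3 by −2.15 (−3.56 to −0.74), also with adjusted p of 0.770 and 0.770. Among genes called against chow, the smallest p against MASH belonged to Lipc (−0.33 ± 0.07) and Cept1 (−0.35 ± 0.07), the latter an enzyme of phosphatidylcholine synthesis, both with an adjusted p of 0.770.

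**Figure D5:**
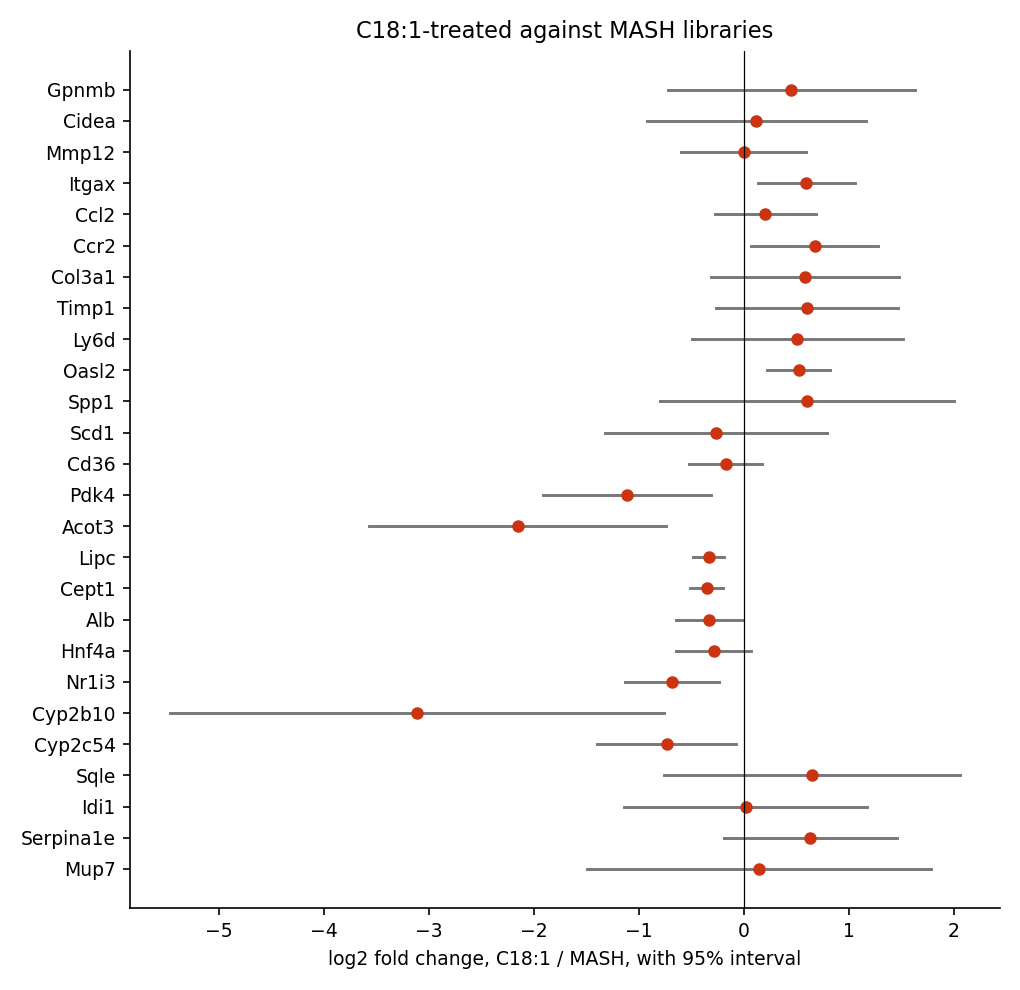
Log2 fold change of C18:1 over MASH (points) with the 95% interval of the edgeR fit (lines) for 26 genes, n = 4 and 3 libraries. The interval holds 0 for 15 of the 26 genes, and none of these differences passed the adjusted threshold. Some of the 26 genes were chosen for a small p against MASH, so this count describes the genes shown, and over all tested genes 6.18% had an unadjusted p below 0.05.

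The 4 C18:1 libraries differed in how far they lay from chow. Replicate 1, whose tag names the diet alone, was the highest of the 4 for 44.0% of the 4351 higher genes and the lowest of the 4 for 47.3% of the 3901 lower genes. Replicate 2 held these places for 8.43% and 8.74%. The median root mean square difference from the chow libraries was 1.18 for replicate 1, 0.907 for replicate 2, 1.07 for replicate 3 and 1.06 for replicate 4. The median difference from the MASH libraries was also largest for replicate 1, at 0.662 against 0.472, 0.612 and 0.534 for replicates 2 to 4, although replicates 1 and 3 were the nearest to MASH replicate 4.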

How the data were processed

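RNA was extracted from whole liver with an RNeasy kit and made into NEBNext Ultra II libraries, per the labels' protocols. The authors deposited a table of expected counts per gene (estimated counts, about 5% of them not whole, not normalized). The submitters' processing notes name GRCm38, HTSeq and DESeq2 1.42.1 without saying what each was used for, and no aligner is named in the sources used here. The deposited comparison tables were not used, because their group letters have no key. Groups were taken from the titles.

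Counts were rounded to whole numbers and fitted with edgeR 4.0.16 in R 4.3.3 (quasi-likelihood test, robust, TMM scaling) over all 14 libraries in 4 groups, so that all share 1 estimate of the spread. Genes were kept by edgeR's filter with a minimum count of 10 and a minimum total of 15. P-values were adjusted by Benjamini-Hochberg over the 15674 tested genes with a threshold of 0.05, and CPM values use the TMM-scaled totals. The test was tried on simulated counts for C18:1 against chow (15489 genes). It found 46.3% of genes given a 1.5-fold change, 64.2% at 2-fold and 90.9% at 4-fold. Of its 147 calls 13 were false, a share above the 0.05 threshold. In that simulation 200 genes were drawn for a change and the groups otherwise had equal means, whereas 52.6% of genes were called in the data. These rates therefore do not describe the error or recovery of the actual comparison.

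Alternatives were other scaling, no filter, DESeq2 1.42.0, limma 3.58.1 voom with sample weights, the compared groups alone, groups from the tags, a fit with the replicate block, and fits that lack 1 library or the doubted libraries. The compared groups and gene lists were chosen with earlier results of these data known, and the motifs of the interferon and receptor type were added later still. Genes were named by rule: no overlap, at least 1 CPM in the higher group, and then the 15 largest rises and falls, the 10 largest changes in CPM, up to 4 of smallest p in each list, Ccl2 and Ppara, and the 8 of smallest p against MASH. Of the 210 genes examined for the text, 109 come from this rule and 101 were chosen after their values were seen, mostly list members that did not pass or that go with a named gene. Some results are not reported here.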

Additional observations from a re-analysis of the deposited data

Results flagged for a closer look

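In 34 of 530 groups of 4 libraries, 1 library lay apart from the other 3 by more than Dixon's 95% limit, and chance alone gives about 1 in 20 such groups. The checks covered 210 genes and 53 summed gene lists, and the total count and first component score of each library, in chow and in C18:1 liver. Their part in the differences between the groups was not tested beyond the values without 1 library given above.

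For chow replicate 1, Acta2 was the highest at 4.98 CPM against 0.889 to 1.18 CPM in the others. Hspa5 was the highest at 2766 CPM against 686 to 958 CPM in the others. Krt19 was the highest at 4.11 CPM against 0.529 to 0.824 CPM in the others. Stat2 was the highest at 85.5 CPM against 53.3 to 57.1 CPM in the others. Tubb2a was the highest at 85.7 CPM against 34.3 to 40.5 CPM in the others. Summed ER chaperones and unfolded protein response genes were the highest at 13634 CPM against 5224 to 5795 CPM in the others. Summed iron handling genes were the lowest at 6475 CPM against 6680.0 to 6699 CPM in the others.

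For chow replicate 2, summed pancreatic acinar genes were the highest at 257 CPM against 5.49 to 7.68 CPM in the others.

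For chow replicate 3, Aqp7 was the highest at 0.0504 CPM against no counts in the other 3. Il1rn was the highest at 3.30 CPM against 2.56 to 2.61 CPM in the others.

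For chow replicate 4, Bckdk was the lowest at 10.98 CPM against 13.3 to 13.7 CPM in the others. Msmo1 was the highest at 258 CPM against 95.5 to 119 CPM in the others. Srebf2 was the highest at 80.3 CPM against 59.7 to 62.4 CPM in the others. Ucp3 was the highest at 0.0294 CPM against no counts in the other 3.

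For C18:1 replicate 1, Apob was the lowest at 5486 CPM against 6604 to 6810.5 CPM in the others. Cidea was the highest at 75.3 CPM against 34.1 to 40.4 CPM in the others. Cxcl5 was the highest at 0.562 CPM against 0.234 to 0.256 CPM in the others. Hmgcs1 was the highest at 128 CPM against 65.7 to 76.3 CPM in the others.

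For C18:1 replicate 2, Cidec was the lowest at 123 CPM against 144 to 146 CPM in the others. Col7a1 was the lowest at 0.398 CPM against 0.717 to 0.782 CPM in the others. Fabp3 was the lowest at 1.08 CPM against 2.72 to 2.89 CPM in the others. Pdk4 was the lowest at 14.9 CPM against 33.2 to 35.3 CPM in the others. Summed neutrophils genes were the highest at 42.6 CPM against 17.1 to 19.2 CPM in the others. Summed sinusoidal and other endothelial cells genes were the highest at 821 CPM against 694 to 701 CPM in the others. Summed erythroid genes were the highest at 754 CPM against 265 to 320.0 CPM in the others.

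For C18:1 replicate 3, Acot3 was the highest at 4.85 CPM against 1.96 to 2.25 CPM in the others. Summed female-biased liver genes genes were the highest at 45.3 CPM against 28.7 to 31.4 CPM in the others.

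For C18:1 replicate 4, Cyp3a11 was the highest at 2913 CPM against 1652 to 1857 CPM in the others. Ddit3 was the highest at 25.5 CPM against 12.5 to 14.04 CPM in the others. Gstm2 was the lowest at 39.4 CPM against 52.6 to 53.8 CPM in the others. Nqo1 was the lowest at 7.11 CPM against 8.18 to 8.32 CPM in the others. Stat2 was the highest at 86.5 CPM against 67.9 to 70.4 CPM in the others. Summed lipid droplet and lipolysis genes were the highest at 3173 CPM against 2818 to 2852 CPM in the others. Summed immediate early genes genes were the highest at 1277 CPM against 852 to 877 CPM in the others.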

How the results depend on the processing

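Leaving out each library in turn, 3797 to 4392 genes were higher and 3156 to 3953 lower, and 2320 to 2818 and 355 to 499 changed at least 2-fold upward and downward. With groups from the treatment tags 2467 genes were lower, 253 of them at least 2-fold, and without C18:1 replicates 1 and 3 together 2506 were lower. The tags place C18:1-leucine replicate 1, at −11.8 on the first component, in the C18:1 group and C18:1 replicate 1 in the MASH group. Without the 2 libraries whose tag and title disagree 3150 were lower. The cause of these lower counts was not tested. C18:1 against MASH gave 3 genes by DESeq2 and 0 in all other settings run. The higher genes made up 50.6% to 58.3% of those called. Replicate numbers did not pair the libraries, since same-numbered chow and C18:1 libraries had deviations correlated at 0.00, 0.01, 0.07 and −0.16. With the replicate block 4227 genes were higher and 3701 lower, 2632 and 425 at least 2-fold, with 0 against MASH, and the calls of Bckdk, Saa2 and Hspa5 were lost while Ppara passed (adjusted p = 0.0386, edgeR).

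Of the 210 genes examined for the text, only ones that had not passed changed direction, from a fall to a log2 fold change above 0 that did not pass either. With 1 library left out the values ran from −0.104 to 0.0218 for Cpt1a, −0.833 to 0.283 for Cyp7a1, −0.0977 to 0.0394 for Nr1h3, −0.225 to 0.0560 for Plin5, −0.136 to 0.0222 for Trf and −0.339 to 0.0227 for Trib3. With groups from the treatment tags they were 0.00702 for Cpt1a, 0.153 for Cyp7a1, 0.000618 for Fn1, 0.0637 for Nr1h3 and 0.0487 for Trf. Without the 2 libraries whose tag and title disagree they were 0.0146 for Cpt1a, 0.0382 for Nr1h3 and 0.0321 for Plin5. Without C18:1 replicates 1 and 3 together they were 0.00204 for Cpt1a, 0.103 for Nr1h3, 0.0525 for Plin5 and 0.0917 for Timd4. The 95% interval of C18:1 against MASH lay within 2-fold for 78.7% of tested genes.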
